A study of Homo sapiens with 9 samples.

Results

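The genes described here make ribosomes: 55 protein-coding genes of RNA polymerase I (Pol I) and of ribosome assembly, out of 22587 genes in the expression table. They were taken by name. The rule collected every gene whose symbol begins with UTP, NOP, NOL, RRP, RRS, BMS or IMP followed by a number and at most 1 letter (IMP1 excepted), the 8 RNA polymerase I subunits POLR1A to POLR1H, and FBL, DKC1, NCL, NPM1, BOP1, PES1, WDR12 and NIP7. The rule uses names and no measured value, although it was written with earlier results of these data known. By known role, 8 are polymerase subunits, 5 are core proteins of small nucleolar ribonucleoproteins (snoRNPs), 2 are abundant nucleolar proteins, 23 act on the small ribosomal subunit and 15 on the large one. The remaining 2, NOL3 and NOL4L, match the name pattern but are not known assembly factors. NOL3 is an inhibitor of apoptosis, and the pair is kept apart below.

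RNA-seq had been done on HepG2, an established human hepatocellular tumor line, to ask how such cells react when glutamine (Gln) runs out. There were 3 samples with Gln added, 3 that were Gln deprived for 12 h and 3 that were Gln deprived for 24 h, with no genetic change and no drug in any group. All were grown in high-glucose medium with serum before the medium was changed. The labels give GlutaMAX, a stable Gln-containing dipeptide, as the supply of the Gln-added samples, whereas the written protocol places it in the medium of the deprivation experiment, so what the deprived cells still received is not settled by the sources. The labels do not say whether the 3 samples of a group were separate cultures, and p-values measure only the spread between these samples.

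Ribosome production begins in the nucleolus, where Pol I transcribes the ribosomal DNA into one long precursor. Small nucleolar RNAs, held in C/D or H/ACA particles, guide methylation and pseudouridylation of that precursor, and a large set of assembly factors folds it, cuts it and loads ribosomal proteins, first as a small subunit processome and then as separate pre-40S and pre-60S particles. The process takes a large share of the energy and nucleotides of a growing tumor cell, and Gln is a nitrogen donor for those nucleotides.

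Levels are given as FPKM, that is, fragments per kilobase of transcript and per unit of sequencing depth. A difference is the log2 fold change of log2(FPKM + 0.1) with its standard error (SE, 3 samples in each group), from one limma fit over the 11880 genes that averaged 0.5 FPKM or more. A gene is called higher or lower at an adjusted p under 0.05, with Benjamini-Hochberg adjustment over all 11880. Recovered fragments on genes numbered between 29595229 and 36230245 per sample. All 10 hepatocyte and HepG2 marker genes were above 1 FPKM (ALB, 3230 to 3908 FPKM), although their summed level moved with the groups, being 10110 to 10165 FPKM with Gln added and lower after 12 h (8736 to 9034) and after 24 h (8780 to 9314). Fibroblast markers summed to at most 0.775 FPKM and endothelial markers to at most 0.366 FPKM. Of the leukocyte list, LYZ measured 524 to 785 FPKM and CD68 21.2 to 36.3 FPKM, and their sum was lowest at 12 h (552 to 592 FPKM, against 767 to 787 with Gln added and 758 to 806 at 24 h). The part of these marker genes in the results was not tested. In a bulk sample, a change in the kinds of cells present and a change of RNA per cell cannot be told apart.

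All 55 genes passed the filter on low values. With Gln added their means ran from 1.31 FPKM for RRP8 to 503 FPKM for NPM1, a 383-fold range with a median of 20.3 FPKM. Of the 55, 43 were at 10 FPKM or more and 6 were under 5. Those over 100 FPKM were NPM1, NCL, NOP56, FBL and NOP10. A member was covered by 162 to 46582 fragments in a sample, and replicates of a member varied by a median coefficient of variation of 3.00% (Gln added), 3.59% (12 h) and 3.80% (24 h). Among the 24 h samples, replicate 1 gave the highest value for 38 of the 55 genes.

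After 12 h without Gln, ribosome biogenesis mRNAs shifted in both directions, with more members up than down. RRS1 and RRP12 rose the most, NOL11 and NOP9 fell the most, and the sizes were modest. Of the 55 members, 25 were called higher (45.5%, against 29.1% of all genes tested) and 10 lower (18.2%, against 31% of all genes tested). The share called in either direction was 63.6%, near the 60.2% of all genes tested. With an absolute log2 fold change of at least 0.5 also required, 2 members were higher (9.65% of all genes tested were) and 0 were lower (10.8% of all genes tested were, 20.4% in either direction). With no size required, 27 members were higher and 14 lower at an unadjusted p under 0.05. Voom called 25 and 13 members (3536 and 3772 of all genes tested). The median log2 fold change of the members was 0.10, beside -0.019 over all genes tested. When each sample's trend of expression on gene length was removed, 26 members were higher and 6 lower (3527 and 3577 of all genes tested).

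After 24 h the balance between rises and falls was more even. RRP12 and UTP3 stood highest against Gln added, and NOL11, NOP10, POLR1G, NCL and POLR1E stood lowest. A total of 20 members were called higher (36.4%, against 33% of all genes tested) and 14 lower (25.5%, against 31.7% of all genes tested). Either direction took 61.8% of the members and 64.7% of all genes tested. Past 0.5 on the log2 scale there were 2 higher (12.6% of all genes tested) and 1 lower (12.4% of all genes tested, with 24.9% in either direction), and the median was 0.023, beside 0.013 over all genes tested. Without replicate 1 of the 24 h group, 17 were called higher and 14 lower (3786 and 3732 of all genes tested).

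Between 12 h and 24 h of deprivation, changes in the members were called in the downward direction. With 13 of 55 lower (23.6%), the share was above the 10.5% of all genes tested. None were called higher by limma (9.57% of all genes tested were). The count of higher members was 2 at an unadjusted p under 0.05 and 0 with voom on recovered fragments. The median log2 difference was -0.051, beside 0.019 over all genes tested. The lower count rested on the fit: it was 6 when only the 12 h and 24 h samples were fitted, 8 with no filter and 18 with the length trend removed. It was 8 without 12 h replicate 1 or 2 or without 24 h replicate 2 or 3, 11 without 12 h replicate 3 (with 1 higher) and 14 without 24 h replicate 1. The lower count over all genes tested moved as well, from 1249 of 11880 in the main fit. That count was 903 with only the 12 h and 24 h samples, 1588 with the length trend removed and 971 of 22587 with no filter. With 1 sample left out it was 864 to 1314. No member passed 0.5 on the log2 scale in either direction, as 1.77% of all genes tested did upward and 1.41% downward (3.18% in either). All 3 comparisons draw on the same 9 samples, and those of 12 h and 24 h share the Gln-added samples.

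Counted instead by samples that did not overlap between 2 groups, 27 members were higher and 11 lower at 12 h (69.1%, against 32.8% higher, 34.4% lower and 67.2% either of all genes tested). At 24 h 21 were higher and 15 lower (65.5%, against 35.7%, 34.1% and 69.9%). Between 12 h and 24 h 3 were higher and 21 lower, against 17.5%, 16.9% and 34.4% of all genes tested. The last pair of counts thus leaned downward without the limma threshold.

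**Figure D1:**
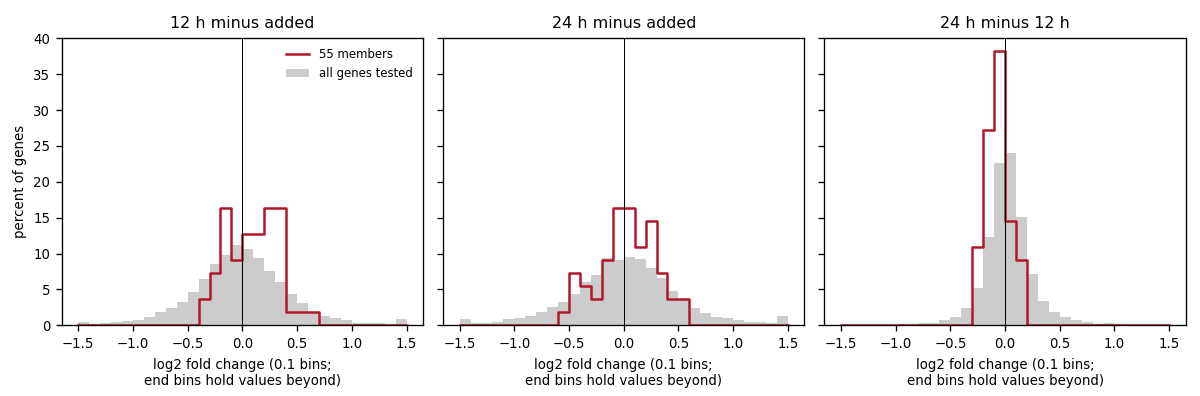
Distribution of log2 fold changes in 0.1-wide bins for the 55 members (red outline) and all 11880 genes tested (grey), as a percent of genes, for 12 h against Gln added, 24 h against Gln added and 24 h against 12 h. The members keep within -0.53 to 0.62 while the grey bars reach the end bins, and in the right panel most of the red outline lies below 0.

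Over both times, 15 members were higher at 12 h and at 24 h with no call between the times, and a further 2, DKC1 and WDR12, were higher at both but lower at 24 h than at 12 h. A group of 9 was lower at both times, 4 of them with a further fall between 12 h and 24 h. Rises called only at 12 h numbered 8, and 11 members passed the adjusted threshold of the main limma fit in no comparison. Among those 11, voom called POLR1F and NOL4L lower at 12 h and POLR1A higher at 24 h. That a call was made at one time and not at the other does not by itself show a difference between the times. The direct contrast gives that. Of all genes tested, 60.2% were called at 12 h, 64.7% at 24 h and 20.1% between the times. How many of them fell in each of these patterns was not counted, so the pattern counts of the members have no background beside them.

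**Figure D2:**
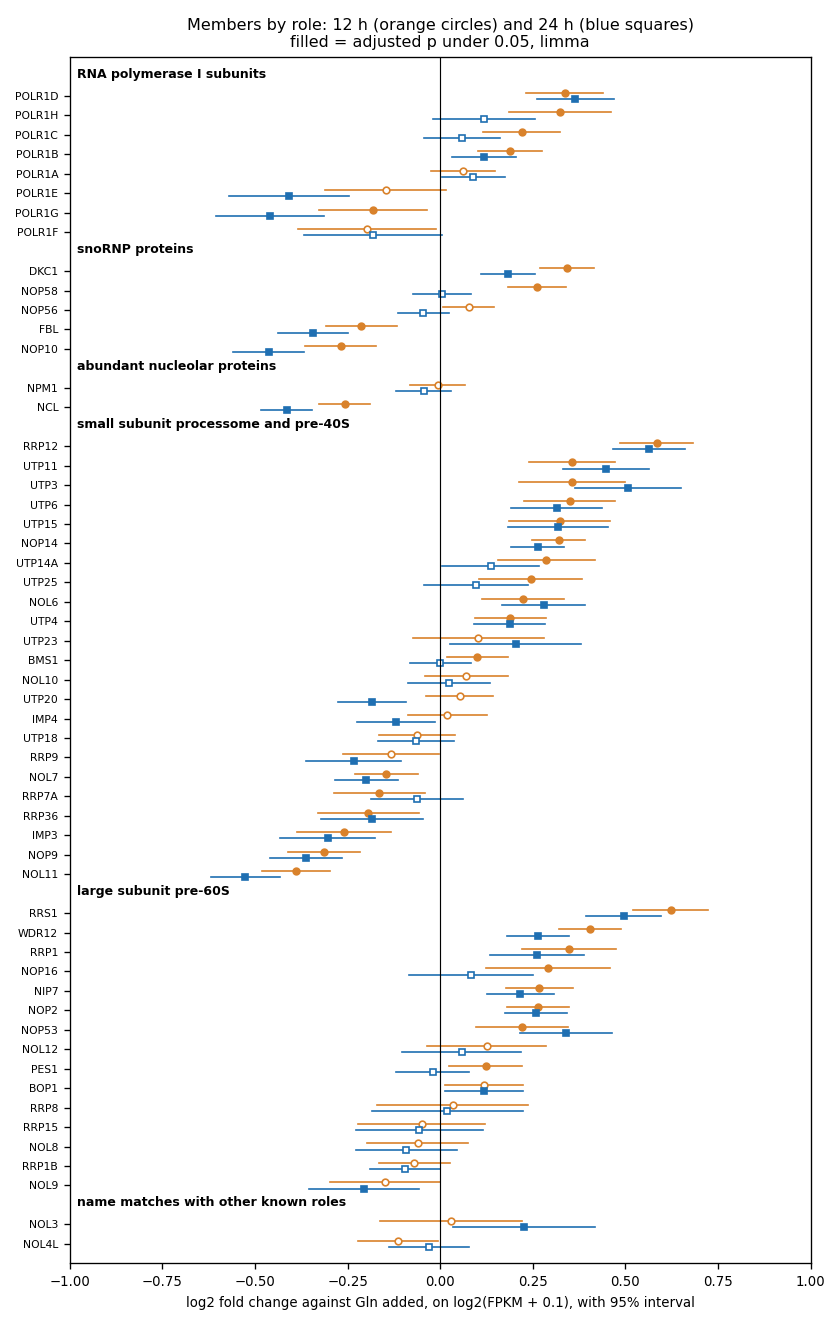
Log2 fold change against Gln added for each of the 55 members, grouped by role, at 12 h (orange circles) and 24 h (blue squares). Filled symbols passed an adjusted p under 0.05 in limma, bars are 95% intervals, and large subunit factors lie mostly to the right of 0 while polymerase subunits and snoRNP proteins fall on both sides.

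The promoters of several members carry the CACGTG E-box, the letters bound by MYC and its relatives, which are known regulators of ribosome production. The promoters of 5 members are shown, as examples of genes that rose and genes that fell. A promoter here is the window from 250 bases before to 50 bases after a gene's start, from RefSeq on GRCh38.p14, which was found for 47 of the 55 members. NOP14 (by 0.32 ± 0.032 at 12 h and 0.26 ± 0.032 at 24 h in log2 fold change, adjusted p = 1.13e-05 and 3.71e-05) and UTP4 rose, NOP10 and FBL fell, and DKC1 rose and has no E-box in the window. Capitals mark the E-box, and each sequence is written 5′ to 3′ on the gene's own strand.
NOP14 (chr4:2963357-2963656, minus strand): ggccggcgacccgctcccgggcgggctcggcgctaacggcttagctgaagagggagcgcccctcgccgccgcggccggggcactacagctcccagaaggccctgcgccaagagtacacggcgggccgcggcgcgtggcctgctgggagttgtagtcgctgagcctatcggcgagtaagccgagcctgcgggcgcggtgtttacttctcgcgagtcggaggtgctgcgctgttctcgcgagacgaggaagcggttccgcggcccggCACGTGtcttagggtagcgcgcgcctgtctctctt
UTP4 (chr16:69132399-69132698, plus strand): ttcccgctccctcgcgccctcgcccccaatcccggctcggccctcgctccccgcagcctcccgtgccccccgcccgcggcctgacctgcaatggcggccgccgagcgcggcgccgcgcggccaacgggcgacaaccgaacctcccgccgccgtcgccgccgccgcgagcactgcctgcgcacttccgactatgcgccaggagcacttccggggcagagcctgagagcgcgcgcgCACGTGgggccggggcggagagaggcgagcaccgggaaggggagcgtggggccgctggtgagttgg
NOP10 (chr15:34343087-34343386, minus strand): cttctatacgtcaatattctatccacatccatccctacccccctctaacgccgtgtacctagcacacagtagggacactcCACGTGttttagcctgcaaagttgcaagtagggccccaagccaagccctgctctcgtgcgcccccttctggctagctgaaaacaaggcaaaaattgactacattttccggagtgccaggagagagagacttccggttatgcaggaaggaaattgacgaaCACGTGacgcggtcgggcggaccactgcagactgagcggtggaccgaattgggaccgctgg
FBL (chr19:39846330-39846629, minus strand): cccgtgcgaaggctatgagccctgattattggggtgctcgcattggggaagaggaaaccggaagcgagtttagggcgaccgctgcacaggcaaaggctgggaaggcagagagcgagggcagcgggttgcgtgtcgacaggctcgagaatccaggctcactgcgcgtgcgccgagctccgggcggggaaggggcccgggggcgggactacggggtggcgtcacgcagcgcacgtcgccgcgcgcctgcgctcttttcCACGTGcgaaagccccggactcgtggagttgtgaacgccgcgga
DKC1 (chrX:154762614-154762913, plus strand): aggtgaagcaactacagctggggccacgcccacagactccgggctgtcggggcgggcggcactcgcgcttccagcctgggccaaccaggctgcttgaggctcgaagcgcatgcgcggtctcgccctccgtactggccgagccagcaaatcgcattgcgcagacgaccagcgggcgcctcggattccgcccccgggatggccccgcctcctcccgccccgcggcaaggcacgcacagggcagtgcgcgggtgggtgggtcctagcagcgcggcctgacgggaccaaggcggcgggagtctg

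The E-box was present in 16 of the 47 member promoters (34.0%), compared with 12.6% of the promoters of genes tested and 8.77% of all genes with a promoter in the table. The 16 with an E-box gave 7 higher and 4 lower calls at 12 h and 4 higher and 7 lower calls at 24 h. The 31 without one gave 15 higher and 6 lower at 12 h and 12 higher and 6 lower at 24 h. The shares of all genes tested were 29.1% higher and 31% lower at 12 h, and 33% and 31.7% at 24 h. Promoters with these letters belonged to members that rose and to members that fell. At 24 h members with an E-box had more lower than higher calls, and members without one had more higher than lower. The split was not tested. Searched on both strands in the same windows, the ETS letters CCGGAAG were in 31.9% of member promoters (23.5% of genes tested), the GC box GGGCGG in 59.6% (76.6%), and TGATGNAA, a C/EBP-ATF element, in 0 of 47 (2.63%). No motif contains another, and the E-box reads the same on both strands. A match describes letters in a window and is not a bound site.

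Of the RNA polymerase I subunits, the shared assembly subunits and the second-largest subunit rose at 12 h, while the PAF53-PAF49 pair stood lower at 24 h. The largest subunit was not called in the main limma fit. At 12 h, 4 of the 8 subunits were called higher and 1 lower (50% and 12.5%, against 29.1% and 31% of all genes tested), and at 24 h 2 were higher and 2 lower (25% each, against 33% and 31.7%). In either direction the shares of 62.5% and 50% were near or below those of all genes tested (60.2% and 64.7%). Between the times 4 were lower (50%, against 10.5% of all genes tested) and 0 higher by limma (0 higher at an unadjusted p under 0.05, and 2 lower and 0 higher with voom).

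POLR1A (chr2:86020216-86106155, minus strand) encodes the largest, catalytic subunit, and measured 12.8, 13.4 and 12.9 FPKM in the Gln-added samples, 13.7, 13.7 and 13.4 after 12 h and 14.2, 13.6 and 13.9 after 24 h. The groups differed by little, with log2 fold changes of 0.061 ± 0.039 at 12 h (adjusted p = 0.197, 95% interval -0.025 to 0.15) and 0.089 ± 0.039 at 24 h (adjusted p = 0.0638, 95% interval 0.0036 to 0.18). The 24 h change was called with voom (adjusted p = 0.0383), and by limma with no filter and with total scaling. POLR1B (chr2:112541915-112579818, plus strand) encodes the second-largest subunit, which completes the active site with POLR1A. It measured 10.7, 11.2 and 11.2 FPKM in the Gln-added samples, 12.6, 12.6 and 12.5 after 12 h and 12.1, 11.9 and 11.9 after 24 h, so that every deprived sample stood above every Gln-added sample. Its log2 fold changes were 0.19 ± 0.039 (adjusted p = 0.00178) and 0.12 ± 0.039 (adjusted p = 0.0209). The 24 h call was lost without 24 h replicate 1 or Gln-added replicate 1 (0.094 to 0.13 with 1 sample left out, adjusted p up to 0.0919) and with the length trend removed (0.031, adjusted p = 0.539).

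POLR1C and POLR1D form the assembly platform that Pol I shares with RNA polymerase III. POLR1D (chr13:27620742-27744237, plus strand) was the most abundant per length of the subunits named POLR1, at 26.6, 25.6 and 28.6 FPKM in the Gln-added samples, 33.8, 34.6 and 33.7 after 12 h and 36.2, 34.2 and 33.8 after 24 h. The Gln-added and deprived samples did not overlap, and the log2 fold changes were 0.34 ± 0.047 (adjusted p = 0.000116) and 0.36 ± 0.047 (adjusted p = 5.02e-05). Its partner POLR1C (chr6:43509702-43562419, plus strand) measured 12.2, 12.4 and 13.0 FPKM in the Gln-added samples, 14.3, 14.6 and 15.0 after 12 h and 12.5, 13.0 and 13.7 after 24 h. All 3 of the 12 h samples were above the Gln-added ones, but the 24 h samples overlapped them. In log2 terms POLR1C changed by 0.22 ± 0.047 at 12 h (adjusted p = 0.00202) and by 0.059 ± 0.047 at 24 h (adjusted p = 0.294), and 24 h was below 12 h by -0.16 ± 0.047 (adjusted p = 0.0344). The last call was lost under 5 other settings, voom among them, and without any of the 3 samples at 12 h or 24 h replicate 1 or 2 (-0.20 to -0.13 with 1 sample left out, adjusted p up to 0.0846). Transcripts on the opposite strand cover 18.3% of POLR1C exon bases.

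POLR1H (chr6:30058899-30064909, plus strand), the small subunit needed for cleavage of backtracked RNA, took a similar course. It measured 21.2, 20.7 and 19.0 FPKM in the Gln-added samples, 25.2, 26.6 and 24.3 after 12 h and 23.7, 20.4 and 22.0 after 24 h. The 12 h samples were the highest, and the 24 h samples overlapped those with Gln added. In log2 terms POLR1H changed by 0.32 ± 0.062 after 12 h (adjusted p = 0.00111) and by 0.12 ± 0.062 after 24 h (adjusted p = 0.12), with a difference of -0.20 ± 0.062 between the times (adjusted p = 0.0428). The call between the times was lost under 5 other settings and without 12 h replicate 1 or 2 or 24 h replicate 2 or 3 (-0.26 to -0.15 with 1 sample left out, adjusted p up to 0.139). Opposite-strand transcripts cover 24.5% of its exon bases, and whether strand was used in counting is not given in the sources used here.

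POLR1E (PAF53, chr9:37485948-37503697, plus strand) and POLR1G (PAF49, chr19:45406644-45410737, plus strand) form a heterodimer on the surface of Pol I that aids initiation and elongation. POLR1E measured 11.3, 10.3 and 11.3 FPKM in the Gln-added samples, 8.80, 10.7 and 10.2 after 12 h and 8.60, 8.25 and 7.81 after 24 h. The 24 h samples lay below all Gln-added and all 12 h samples, whereas the 12 h samples overlapped those with Gln added. Its log2 fold changes were -0.15 ± 0.073 at 12 h (adjusted p = 0.105) and -0.41 ± 0.073 at 24 h (adjusted p = 0.000586). POLR1G measured 7.06, 7.89 and 7.63 FPKM in the Gln-added samples, 6.10, 6.61 and 7.18 after 12 h and 5.32, 5.48 and 5.52 after 24 h, again with the 24 h samples lowest and the 12 h samples overlapping the Gln-added ones. It changed by -0.18 ± 0.066 at 12 h (adjusted p = 0.0335) and by -0.46 ± 0.066 at 24 h (adjusted p = 0.000113). The 12 h call was lost with total scaling, with no filter, with the length trend removed (-0.15, adjusted p = 0.0647) and without Gln-added replicate 2 or 3 or 12 h replicate 1 or 2 (-0.24 to -0.12 with 1 sample left out, adjusted p up to 0.134). A share of 49.8% of POLR1G exon bases is covered by opposite-strand transcripts.

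POLR1F (chr7:19695461-19709037, minus strand), a subunit of the stalk that contacts the initiation factor RRN3, measured 8.40, 7.91 and 8.70 FPKM in the Gln-added samples, 6.84, 7.05 and 7.89 after 12 h and 6.42, 7.76 and 7.92 after 24 h. All deprived samples except 24 h replicate 3 were below the lowest Gln-added sample. Neither change passed in the main limma fit: the log2 fold changes were -0.20 ± 0.084 (adjusted p = 0.0622) and -0.18 ± 0.084 (adjusted p = 0.0799). The 12 h change was called with voom (adjusted p = 0.0446), with only 2 groups fitted, with the replicate block and without 12 h replicate 3. The 24 h change was called with the replicate block, with the length trend removed and without 24 h replicate 3. As a description of the subunits against each other, with the pair picked after the values were seen, the ratio of POLR1D to POLR1E in FPKM was 2.46 ± 0.0889 (SD, n = 3) in Gln-added samples, 3.46 ± 0.333 after 12 h and 4.22 ± 0.0924 after 24 h.

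**Figure D3:**
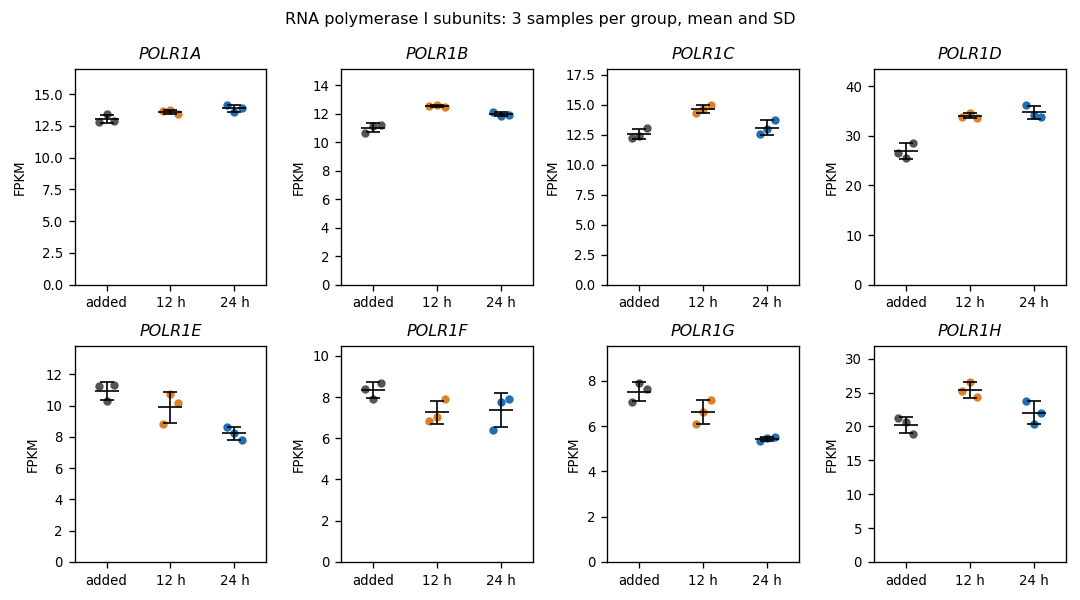
FPKM of the 8 RNA polymerase I subunits in each of the 9 samples, with horizontal lines and bars for the mean and SD of the 3 samples of a group. POLR1D stands higher in both deprived groups, POLR1C and POLR1H stand highest at 12 h, and POLR1E and POLR1G are lowest at 24 h.

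Among the core proteins of the snoRNPs, each particle had a gene that rose and a gene that fell. In the H/ACA particle, which carries out pseudouridylation, DKC1 rose and NOP10 fell. In the C/D particle, which carries out 2′-O-methylation, NOP58 rose at 12 h and overlapped the Gln-added samples at 24 h, while FBL fell at both times. Of the 5 genes, 2 were higher and 2 lower at 12 h (40% each, against 29.1% and 31% of all genes tested), 1 was higher and 2 lower at 24 h (20% and 40%, against 33% and 31.7%), and 4 were lower at 24 h than at 12 h (80%, against 10.5%).

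DKC1 encodes dyskerin, the pseudouridine synthase, and lies at chrX:154762742-154777689, plus strand. It measured 45.2, 45.3 and 44.7 FPKM in the Gln-added samples, 58.6, 56.2 and 56.7 after 12 h and 52.6, 50.4 and 50.6 after 24 h. The 3 groups did not overlap, with the 12 h samples highest and the Gln-added samples lowest. The log2 fold changes were 0.34 ± 0.033 (adjusted p = 8.37e-06) and 0.18 ± 0.033 (adjusted p = 0.00063). NOP10 (chr15:34339159-34343180, minus strand), a very small protein that binds dyskerin directly, measured 125, 130.0 and 134 FPKM in the Gln-added samples, 104, 112 and 107 after 12 h and 90.5, 93.7 and 97.9 after 24 h. Its groups did not overlap either, but in the other order, with Gln added highest and 24 h lowest. It changed by -0.27 ± 0.043 at 12 h (adjusted p = 0.000326) and -0.46 ± 0.043 at 24 h (adjusted p = 4.4e-06). NOP10 is a short gene, and short genes in general were lower after 12 h (Pearson's r of 0.17 between log2 length and fold change across the 11880 genes, which are not independent). With that trend removed the 12 h value was -0.036 (adjusted p = 0.615) and the 24 h value -0.34 (adjusted p = 0.000366). The ratio of DKC1 to NOP10 was 0.348 ± 0.0138 (SD, n = 3) in Gln-added samples, 0.532 ± 0.0321 after 12 h and 0.545 ± 0.033 after 24 h, a pair chosen after its values were seen.

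FBL (fibrillarin, chr19:39834458-39846379, minus strand), the methyltransferase of the C/D particle, measured 133, 132 and 135 FPKM in the Gln-added samples, 118, 116 and 110.4 after 12 h and 108, 98.7 and 108 after 24 h. Every deprived sample was below every Gln-added sample. The log2 fold changes were -0.21 ± 0.043 (adjusted p = 0.00143) and -0.34 ± 0.043 (adjusted p = 4.06e-05), and with the length trend removed -0.072 (adjusted p = 0.145) and -0.25 (adjusted p = 0.000289). NOP58 (chr2:202265736-202303661, plus strand), which with NOP56 forms the scaffold that holds fibrillarin, measured 65.6, 65.0 and 66.1 FPKM in the Gln-added samples, 80.9, 76.0 and 79.0 after 12 h and 67.9, 64.4 and 65.0 after 24 h. The 12 h samples were above all others, and the 24 h samples were back among the Gln-added ones. It changed by 0.26 ± 0.036 at 12 h (adjusted p = 9.83e-05) and 0.0045 ± 0.036 at 24 h (adjusted p = 0.919). NOP56 (chr20:2652593-2658393, plus strand) measured 219, 212 and 217 FPKM in the Gln-added samples, 229, 233 and 223 after 12 h and 210.4, 212 and 206 after 24 h. Neither change against Gln added passed the test in the main fit (adjusted p = 0.0527 at 12 h and 0.22 at 24 h). The 12 h samples were all above the Gln-added ones. The 12 h rise was called with total or median-ratio scaling, only 2 groups fitted, the replicate block and the length trend removed. It was also called without 12 h replicate 3. The ratio of NOP58 to FBL was 0.492 ± 0.00291, 0.684 ± 0.0319 and 0.627 ± 0.0259 in the 3 groups in turn (SD, n = 3), again as a description.

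**Figure D4:**
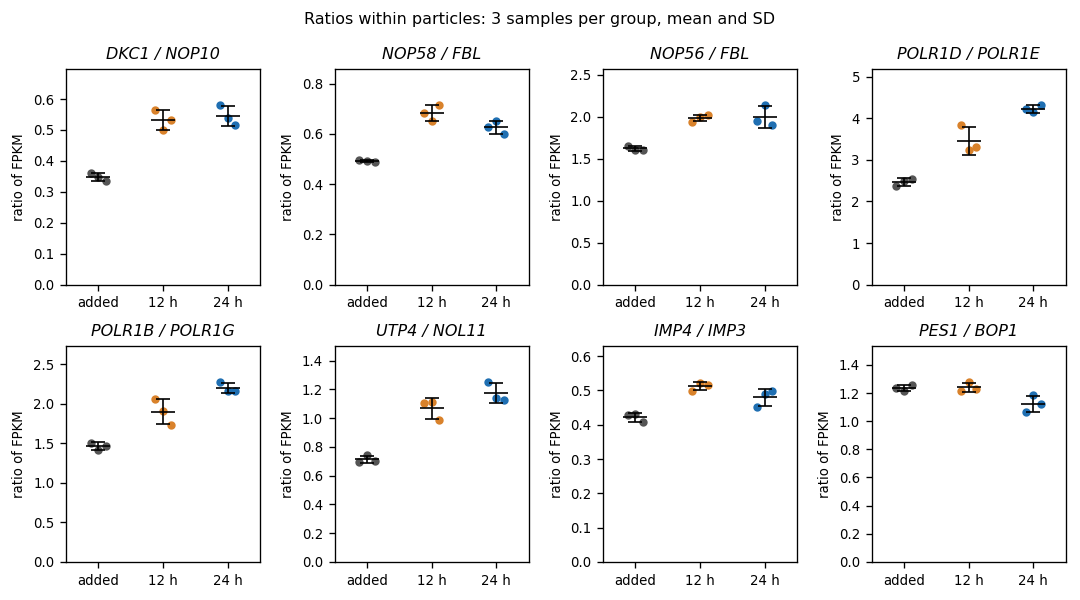
Ratio of FPKM, which is per length, between pairs of genes whose proteins share a particle, in each of the 9 samples with mean and SD of 3. The pairs drawn are a selection of those computed. All of them except PES1 to BOP1 are higher in the deprived groups than with Gln added, and the mean PES1 to BOP1 ratio is 1.24 in Gln-added and in 12 h samples and 1.12 in 24 h samples, all 3 of which lie below the Gln-added ones. Of the pairs not drawn, NOP58 to NOP56 (0.304 to 0.323 at 24 h, 0.299 to 0.307 with Gln added) and POLR1B to POLR1A (0.856 to 0.872, 0.832 to 0.872) overlapped Gln added at 24 h. The rest were higher in both deprived groups.

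The abundant nucleolar proteins differed from each other. NCL, nucleolin, an RNA-binding protein that acts on the rRNA precursor and lies at chr2:231453531-231483641, minus strand, measured 333, 319 and 334 FPKM in the Gln-added samples, 273, 273 and 278 after 12 h and 249, 248 and 243 after 24 h. It fell stepwise without overlap between any 2 groups. Its log2 fold changes were -0.26 ± 0.031 (adjusted p = 3.88e-05) and -0.41 ± 0.031 (adjusted p = 7.9e-07). NPM1, nucleophosmin (chr5:171387116-171411810, plus strand), a chaperone of the nucleolus whose many processed pseudogenes may share its reads, measured 507, 485 and 516 FPKM in the Gln-added samples, 502, 491 and 506 after 12 h and 495, 477 and 488 after 24 h. The groups overlapped, and the 95% intervals were -0.082 to 0.067 at 12 h and -0.12 to 0.029 at 24 h. The ratio of NPM1 to NCL was 1.53 ± 0.0123 (SD, n = 3) in Gln-added samples, 1.82 ± 0.0209 after 12 h and 1.98 ± 0.0436 after 24 h.

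Factors of the small subunit processome and the pre-40S particle changed in both directions. RRP12, UTP11 and UTP3 rose at both times, and NOL11 and NOP9 fell at both. Of the 23 genes, 11 were higher and 6 lower at 12 h (47.8% and 26.1%, against 29.1% and 31% of all genes tested), and 9 were higher and 8 lower at 24 h (39.1% and 34.8%, against 33% and 31.7%). At each time 6 were not called. Called rises spanned 0.10 to 0.58 (12 h) and 0.19 to 0.56 (24 h) on the log2 scale. Called falls reached -0.39 and -0.53.

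RRP12 (chr10:97356358-97426076, minus strand), which takes part in the maturation and nuclear export of pre-ribosomes, measured 17.9, 18.3 and 18.3 FPKM in the Gln-added samples, 27.5, 28.4 and 26.0 after 12 h and 28.1, 26.3 and 26.4 after 24 h. All deprived samples lay far above the Gln-added samples, while the 12 h and 24 h samples overlapped. The log2 fold changes were 0.58 ± 0.044 (adjusted p = 1.26e-06) and 0.56 ± 0.044 (adjusted p = 1.13e-06). UTP3 (chr4:70688532-70690551, plus strand), a processome component also known as SAS10, measured 12.5, 10.8 and 12.2 FPKM in the Gln-added samples, 15.8, 14.6 and 15.0 after 12 h and 17.8, 15.9 and 16.9 after 24 h. The groups were in rising order without overlap, but the step between 12 h and 24 h did not pass the test (0.15 ± 0.065, adjusted p = 0.123). Against Gln added UTP3 changed by 0.35 ± 0.065 (adjusted p = 0.000742) and 0.51 ± 0.065 (adjusted p = 4.7e-05). UTP11 (chr1:38009258-38024820, plus strand), another processome component, measured 22.9, 21.6 and 21.4 FPKM in the Gln-added samples, 27.0, 27.0 and 30.4 after 12 h and 31.0, 29.6 and 29.4 after 24 h. Its deprived samples were again all above those with Gln added, with changes of 0.36 ± 0.052 (adjusted p = 0.000176) and 0.45 ± 0.052 (adjusted p = 2.53e-05).

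NOL11 (chr17:67717931-67744531, plus strand) belongs to the processome subcomplex that is also needed for transcription of the ribosomal DNA. It measured 42.4, 39.96 and 41.1 FPKM in the Gln-added samples, 31.2, 30.9 and 32.1 after 12 h and 27.3, 29.8 and 28.7 after 24 h. The groups fell in order without overlap, and the changes were -0.39 ± 0.042 (adjusted p = 1.69e-05) and -0.53 ± 0.042 (adjusted p = 1.24e-06), the largest fall among the members at both times. UTP4 and UTP15, known partners of NOL11 in this subcomplex, were higher at both times: UTP4 by 0.19 and 0.19, and UTP15 by 0.32 and 0.32. The FPKM ratio of UTP4 to NOL11 was 0.715 ± 0.0255 (SD, n = 3) in Gln-added samples, 1.07 ± 0.0723 after 12 h and 1.17 ± 0.0673 after 24 h, as a description of a pair picked for its values.

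NOP9 (chr14:24299850-24309124, plus strand), an RNA-binding protein of the early small subunit precursor, measured 20.6, 21.5 and 20.5 FPKM in the Gln-added samples, 16.5, 17.4 and 16.5 after 12 h and 16.7, 15.5 and 16.5 after 24 h. Every deprived sample was below every Gln-added sample, with changes of -0.31 ± 0.043 (adjusted p = 0.000111) and -0.36 ± 0.043 (adjusted p = 2.98e-05), and opposite-strand transcripts cover 26.1% of its exon bases. IMP3 and IMP4 are subunits of one complex with MPHOSPH10, a gene outside the name rule that is described with the other pathway genes. IMP3 measured 55.7, 54.7 and 56.7 FPKM in the Gln-added samples, 48.4, 46.4 and 44.6 after 12 h and 48.8, 41.1 and 45.7 after 24 h, with no overlap between Gln-added and deprived samples and changes of -0.26 ± 0.057 and -0.30 ± 0.057. At 12 h the IMP3 call was lost with the length trend removed (-0.12, adjusted p = 0.0751), and opposite-strand transcripts cover 58.1% of its exon bases. IMP4 changed by 0.019 ± 0.048 (adjusted p = 0.744) and -0.12 ± 0.048 (adjusted p = 0.0454), and the second was lost under 5 other settings and without any Gln-added sample or 24 h replicate 2 (-0.16 to -0.07 with 1 sample left out, adjusted p up to 0.17). UTP20, a very large scaffold protein, was not called at 12 h (0.052) and was lower at 24 h (-0.18, adjusted p = 0.00243).

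**Figure D5:**
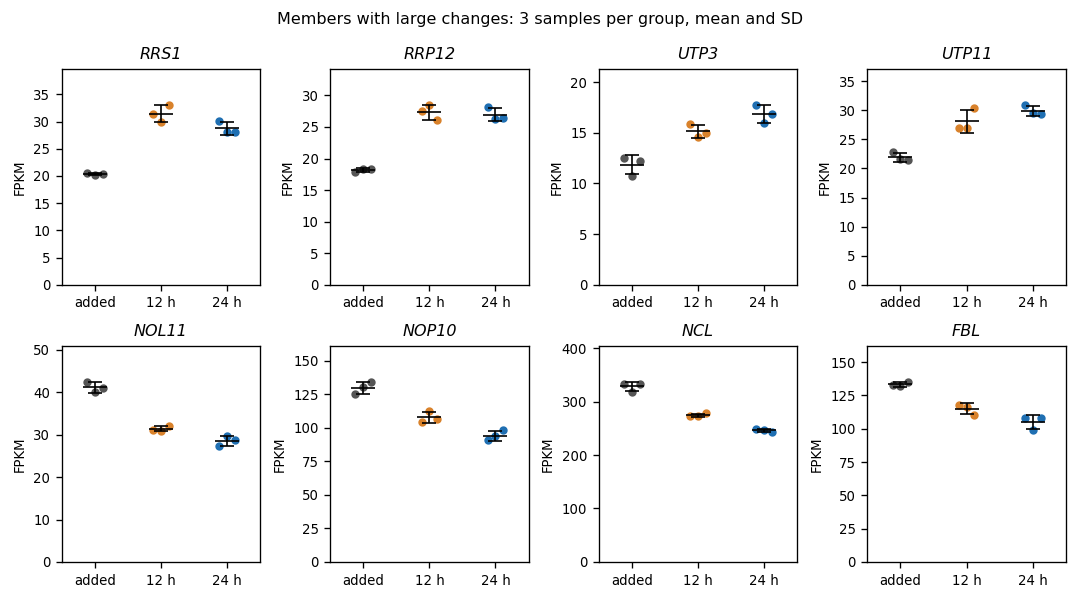
FPKM of 8 members with large changes in each of the 9 samples, with the mean and SD of the 3 samples of a group. RRS1, RRP12, UTP3 and UTP11 are higher in every deprived sample than in any Gln-added sample, and NOL11, NOP10, NCL and FBL are lower in every deprived sample.

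Of the large subunit factors, more rose than fell. At 12 h, 8 of 15 were higher and 0 lower by limma (1 lower at an unadjusted p under 0.05 and 1 with voom), and at 24 h 7 were higher and 1 lower. Higher calls took 53.3% and 46.7% of the list, against 29.1% and 33% of all genes tested, and lower calls 0% and 6.7%, against 31% and 31.7%. The median log2 fold change was 0.13 (12 h) and 0.084 (24 h).

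RRS1, on chromosome 8, helps to place the 5S ribonucleoprotein in the pre-60S particle. It measured 20.5, 20.2 and 20.4 FPKM in the Gln-added samples, 31.4, 29.9 and 33.1 after 12 h and 30.1, 28.0 and 28.1 after 24 h. The Gln-added samples kept within a narrow band, and all deprived samples lay well above it. The log2 fold changes were 0.62 ± 0.046 (adjusted p = 1.03e-06), the largest rise among the members at 12 h, and 0.50 ± 0.046 (adjusted p = 4.05e-06). RRS1 shares 11.3% of its exon bases with another annotated gene on the same strand.

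PES1, BOP1 and WDR12 form the PeBoW complex, which is needed for processing of the large subunit precursor. WDR12 (chr2:202874261-203014798, minus strand) measured 13.8, 13.6 and 13.8 FPKM in the Gln-added samples, 17.9, 17.9 and 18.9 after 12 h and 16.7, 16.5 and 16.3 after 24 h. The 3 groups did not overlap, with 12 h highest, and the changes were 0.40 ± 0.038 (adjusted p = 6.23e-06) and 0.26 ± 0.038 (adjusted p = 0.000119). PES1 (chr22:30576625-30607083, minus strand) measured 33.4, 34.5 and 33.9 FPKM in the Gln-added samples, 36.7, 39.4 and 34.9 after 12 h and 33.6, 33.8 and 33.0 after 24 h. Its 12 h samples were just above the Gln-added ones, and its 24 h samples overlapped them. PES1 changed by 0.12 ± 0.044 at 12 h (adjusted p = 0.0342) and by -0.02 ± 0.044 at 24 h (adjusted p = 0.71), and the 12 h call was lost with no filter, with eBayes without a trend and without any Gln-added sample or 12 h replicate 1 or 2 (0.076 to 0.16 with 1 sample left out, adjusted p up to 0.133). BOP1, on chromosome 8, measured 27.0, 28.4 and 26.9 FPKM in the Gln-added samples, 30.2, 30.8 and 28.4 after 12 h and 31.5, 28.6 and 29.4 after 24 h, with changes of 0.12 ± 0.048 (adjusted p = 0.0522) and 0.12 ± 0.048 (adjusted p = 0.0488). These BOP1 values lie at the threshold. Its 12 h rise was called with a 1 FPKM filter, total or median-ratio scaling, only 2 groups fitted, the replicate block and the length trend removed. It was also called without Gln-added replicate 2 or 12 h replicate 3. The 24 h call was lost under 4 other settings and without Gln-added replicate 1 or 3 or 24 h replicate 1 or 3. With 1 sample left out the 24 h change was 0.08 to 0.15 (adjusted p up to 0.162).

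NIP7 (chr16:69337996-69343106, plus strand), which is needed for processing of the rRNA precursor, measured 30.3, 29.3 and 30.4 FPKM in the Gln-added samples, 37.8, 34.2 and 36.4 after 12 h and 34.7, 34.5 and 35.3 after 24 h, so that all deprived samples were above the Gln-added ones (0.27 ± 0.041 and 0.22 ± 0.041, adjusted p = 0.000234 and 0.000848). NOP53 (chr19:47745546-47757058, plus strand), which brings the nuclear exosome to the pre-60S particle, measured 50.6, 55.3 and 50.4 FPKM in the Gln-added samples, 61.9, 61.6 and 58.7 after 12 h and 71.6, 62.4 and 64.1 after 24 h and was higher at both times (0.22 ± 0.056 and 0.34 ± 0.056, adjusted p = 0.00588 and 0.000317). NOL9 (chr1:6521347-6554513, minus strand), the kinase of the cut internal spacer, was the one large subunit factor called lower. It measured 5.62, 5.78 and 5.34 FPKM in the Gln-added samples, 5.53, 4.74 and 4.83 after 12 h and 5.00, 4.68 and 4.80 after 24 h, with the 24 h samples below those with Gln added, and changed by -0.15 ± 0.067 at 12 h (adjusted p = 0.0749) and -0.21 ± 0.067 at 24 h (adjusted p = 0.0191), the latter lost without Gln-added replicate 1 or 2 or 24 h replicate 2 (-0.24 to -0.18 with 1 sample left out, adjusted p up to 0.0669). RRP1 and RRP1B are related genes on chromosome 21, both linked to large subunit maturation. RRP1 was higher at both times (0.35 ± 0.057 and 0.26 ± 0.057, adjusted p = 0.000381 and 0.00226). RRP1B did not pass the test at either (-0.07 ± 0.043 and -0.10 ± 0.043, adjusted p = 0.182 and 0.0732). NOP2, a methyltransferase of the large subunit rRNA, was higher by 0.26 ± 0.038 and 0.26 ± 0.038, but 54.4% of its exon bases are shared with another gene on the same strand and its value is uncertain.

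Outside the assembly factors, NOL3 measured 2.66, 2.25 and 2.47 FPKM in the Gln-added samples, 2.51, 2.48 and 2.52 after 12 h and 3.21, 2.83 and 2.65 after 24 h. The 24 h samples overlapped those with Gln added, and the change of 0.23 ± 0.087 passed at 24 h (adjusted p = 0.0403), a call lost with voom, with no filter, with only 2 groups fitted and without Gln-added replicate 2 or 3 or 24 h replicate 1 or 2 (0.15 to 0.29 with 1 sample left out, adjusted p up to 0.15). NOL4L was called in no comparison by the main limma fit (12 h: -0.11, adjusted p = 0.0658). At 12 h it was called lower with voom (adjusted p = 0.0498), with the length trend removed (adjusted p = 0.0187) and with the replicate block. It was also called then without Gln-added replicate 3 or 12 h replicate 2.

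The members lower at 24 h than at 12 h were NOP58, NOP10, DKC1 and NOP56 of the snoRNPs, POLR1G, POLR1E, POLR1H and POLR1C of the polymerase, UTP20 and NOL11 of the processome, WDR12 and PES1 of the PeBoW complex, and NCL. The steps were small, from -0.12 for NOP56 to -0.28 for POLR1G on the log2 scale. Of these 13, 4 were called higher at 12 h but not at 24 h (NOP58, PES1, POLR1C and POLR1H). Another 4 (NCL, NOL11, NOP10 and POLR1G) were called lower at both times. The annotation places small nucleolar RNA genes inside 6 members, and 5 of those 6 (DKC1, NCL, NOL11, NOP56 and NOP58) were among the 13, compared with 8 of the 49 members with none. NOP53 was the exception. Of all genes tested, 10.5% were called lower between the times. This split was noticed in the data and is a description only.

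As a share of all expression, the 55 members together changed little. Their summed FPKM, per 1000000 of a sample's total FPKM, was 6063 ± 99.3 (SD, n = 3) in Gln-added samples, 6219 ± 57.9 after 12 h and 5926 ± 101 after 24 h. The 24 h samples overlapped the Gln-added ones, at 6041, 5853 and 5882 against 6101, 5950 and 6137, and the 12 h samples were the highest, at 6157, 6228 and 6271. NPM1 and NCL alone made up 2153 ± 68.8 of that sum in Gln-added samples and 1963 ± 20.1 after 24 h. The other 53 members summed to 3910 ± 30.5, 4165 ± 37.3 and 3962 ± 81.4 in the 3 groups.

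Another 91 genes of the same pathway, listed from general knowledge of their function, also moved in both directions. At 12 h 40 were higher and 15 lower (29.1% and 31% of all genes tested were), and at 24 h 37 were higher and 24 lower (33% and 31.7%), with medians of 0.098 and 0.071. Between the times 2 were higher and 13 lower (9.57% and 10.5% of all genes tested were). Either direction took 16.5% of these genes then and 20.1% of all genes tested. Among snoRNP genes, GAR1, which with NHP2, NOP10 and dyskerin makes up the H/ACA core, rose by 0.53 ± 0.059 at 12 h and 0.45 ± 0.059 at 24 h (adjusted p = 2.3e-05 and 5.94e-05). NHP2 changed by -0.55 ± 0.061 and -0.63 ± 0.061 (adjusted p = 2.17e-05 and 6.02e-06). So 2 of the 4 H/ACA core genes, DKC1 and GAR1, were called higher at both times and the other 2, NOP10 and NHP2, lower. With the length trend removed NOP10 was no longer called at 12 h (adjusted p = 0.615), whereas NHP2 changed by -0.38 and -0.52 (adjusted p = 0.000281 and 2.35e-05). MPHOSPH10, the partner of IMP3 and IMP4, fell the most among small subunit genes, from a mean of 58.8 FPKM in Gln-added samples to 37.2 after 12 h and 37.2 after 24 h (-0.66 ± 0.043 at each time, adjusted p = 4.16e-07 and 2.91e-07).

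Of the factors that work with RNA polymerase I, RRN3, which recruits the enzyme to the promoter and has near-identical pseudogene copies that may share its reads, had the largest rise, from 23.6 FPKM to 33.0 and 31.5 (0.49 ± 0.061 and 0.42 ± 0.061, adjusted p = 5.6e-05 and 0.00013). TCOF1, treacle, a nucleolar factor for ribosomal DNA transcription, had the largest fall, from 20.3 FPKM to 17.1 and 13.9 (-0.25 ± 0.042 and -0.54 ± 0.042, adjusted p = 0.00039 and 1.03e-06). Of these 11 factors, 3 were higher and 1 lower at 12 h, and 3 were higher and 4 lower at 24 h. Of all genes tested, 29.1% were higher and 31% lower at 12 h, and 33% and 31.7% at 24 h. In either direction 36.4% and 63.6% of the 11 factors were called at 12 h and 24 h, against 60.2% and 64.7% of all genes tested. Of 33 other large subunit genes, 20 were higher and 3 lower at 12 h and 19 higher and 6 lower at 24 h. Either direction took 69.7% and 75.8% of them, beside the same 60.2% and 64.7%. PPAN, a pre-60S factor whose exons are shared with a read-through gene, had the largest rise (1.08 ± 0.14 and 0.93 ± 0.14 from a mean of 1.25 FPKM). Of 12 exosome genes, 3 were higher and 3 lower at 12 h, with EXOSC2 lowest at -0.40 and at -0.56 after 24 h. The 50% called at 12 h was below the 60.2% of all genes tested.

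The other RNA polymerases and the ribosomal proteins themselves gave other counts. Of 12 genes named as RNA polymerase II subunits, 0 were higher and 7 lower at 12 h and 0 were higher and 9 lower at 24 h by limma. At either time 0 were higher at an unadjusted p under 0.05 or with voom. This list is not separate from Pol I, since POLR2E, POLR2F, POLR2H, POLR2K and POLR2L encode subunits that Pol I and RNA polymerase III also contain. Of these, POLR2E, POLR2K and POLR2L were called lower at 12 h (-0.28, -0.20 and -0.64). POLR2F and POLR2H were not called then (-0.17 and -0.13). Of 9 RNA polymerase III subunits, 4 were higher and 4 lower at 12 h and 4 higher and 5 lower at 24 h, and POLR3C rose by 0.85 at 12 h while POLR3G changed by -0.75. Cytosolic ribosomal proteins, the cargo of the assembly line, were called higher in 2 of 76 and lower in 7 of 76 at 12 h, with a median of 0.0043, and in 12 and 14 at 24 h. Mitochondrial ribosomal proteins were lower in 43 of 77 and higher in 9 of 77 at 12 h. Of all genes tested, 29.1% were higher and 31% lower at 12 h, and 33% and 31.7% at 24 h. Either direction took 60.2% of all genes tested at 12 h. The shares of the RNA polymerase II, RNA polymerase III, cytosolic and mitochondrial lists were then 58.3%, 88.9%, 11.8% and 67.5%. At 24 h they were 75%, 100%, 34.2% and 68.8%, beside 64.7% of all genes tested. No test was made of the differences between these families.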

How the data were processed

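The authors deposited FPKM for each gene in each of the 9 HepG2 samples, with every column matched to a sample by its label. In the authors' methods the aligner was STAR on GRCh38 and the test was DESeq2. The submitters' processing notes name HTSeq and R 3.2.0. The annotation and the use of strand in counting are not given in the sources used here, and labels and methods name different library kits. FPKM are not counts, so limma 3.58.1 in R 4.3.3 (lmFit, contrasts, eBayes with a trend) was run on log2(FPKM + 0.1) over the 11880 genes that averaged 0.5 FPKM or more, the 3 groups sharing 1 fit. The pseudocount makes fold changes of low genes too small. FPKM values were whole multiples of the worth of 1 fragment within 0.02 fragments for 100% of the 22587 genes, which gave depths and fragments for a voom alternative. The scripts were tested on simulated data. Exact permutation tests of 3 against 3 samples cannot go below a p of 0.1, so they are not printed.

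The members and all lists were chosen with earlier results of these data known. Genes are named by a rule: the Pol I subunits, the 8 genes added to the name pattern, and the extremes of each role list; further members are named where a small count or a change between 12 h and 24 h calls for it, chosen after their values were seen. Alternatives were other pseudocounts, filters, scalings and eBayes settings, 2-group fits, a replicate block, voom, each sample left out, and, added after seeing the data, removal of a length trend (natural spline, 4 degrees of freedom). Positions and overlaps are from GENCODE 44. Of the leukocyte marker list, LYZ and CD68 were used, and the other genes are not reported here. Replicate pairs all differed by more than sampling noise, and unevenly between groups. The chi-square of fragments per degree of freedom was 2.88 to 4.41 with Gln added, 3.38 to 8.33 at 12 h and 5.16 to 14.4 at 24 h. The shared fit used a single spread per gene for all 3 groups. Figures used matplotlib 3.10.9 in Python 3.11.15.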

Additional observations from a re-analysis of the deposited data

Results flagged for a closer look

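For 13 members the change against Gln added differed between 12 h and 24 h, by limma's direct contrast of the 2 deprived groups. All 13 were lower at 24 h. In log2 units the differences among snoRNP genes were -0.26 ± 0.036 for NOP58 (adjusted p = 0.000701), -0.20 ± 0.043 for NOP10 (adjusted p = 0.0102), -0.16 ± 0.033 for DKC1 (adjusted p = 0.00739) and -0.12 ± 0.031 for NOP56 (adjusted p = 0.0193). Among polymerase subunits they were -0.28 ± 0.066 for POLR1G (adjusted p = 0.0142), -0.26 ± 0.073 for POLR1E (adjusted p = 0.0309), -0.20 ± 0.062 for POLR1H (adjusted p = 0.0428) and -0.16 ± 0.047 for POLR1C (adjusted p = 0.0344). For assembly factors the values were -0.24 ± 0.041 for UTP20 (adjusted p = 0.00289), -0.14 ± 0.038 for WDR12 (adjusted p = 0.0241), -0.14 ± 0.044 for PES1 (adjusted p = 0.046) and -0.14 ± 0.042 for NOL11 (adjusted p = 0.0415). NCL differed by -0.16 ± 0.031 (adjusted p = 0.00568). In each of the 13 genes the 3 samples at 24 h lay below the 3 at 12 h, as did those of 16.9% of all genes tested. The 13 were picked by this same contrast, so the lack of overlap is no separate support. The SE comes from the shared fit of all 9 samples, 3 per group, and is not the spread of the 12 h and 24 h samples alone. The calls of NOP58, NOP10, DKC1, POLR1G, UTP20 and NCL held under each alternative run. Those of NOP56, POLR1E, POLR1H, POLR1C, WDR12, PES1 and NOL11 were lost without at least 1 of the samples, with adjusted p up to 0.0736, 0.111, 0.139, 0.0846, 0.0776, 0.144 and 0.0979 in that order. Over all genes tested, 10.5% were called lower in this contrast.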

How the results depend on the processing

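A total of 102 results were recomputed under each alternative, and none changed sign while called. For the named genes, 1300 values kept their side of the threshold, 86 lost a call and 42 gained one. Gains at 12 h against Gln added were in BOP1, NOL4L, NOL9, POLR1E and POLR1F. At 24 h they were in POLR1A, POLR1F, POLR1H and RRP1B, and between the times in FBL, RRS1, UTP3 and UTP11. Of the list counts and medians, 277 stayed within the limits set for them and 29 moved. Rises and falls against Gln added kept their balance: without 1 sample in turn, 23 to 26 members were higher and 8 to 10 lower at 12 h, and 17 to 20 higher and 11 to 14 lower at 24 h. Removing the length trend left 6 members lower at 12 h (FBL, IMP3, NOL7, NOP10, POLR1G and RRP36 lost the call, and NOL4L and NOL9 gained one). For 24 h against 12 h, the lower members numbered 6 with only the 2 groups fitted, 8 with no filter, 8 with eBayes without a trend and 8 to 14 with 1 sample left out. The matching counts over all genes tested were 903, 971 (of 22587), 1070 and 864 to 1314, beside 1249 in the main fit. The higher members numbered 1 with the replicate block and 0 to 1 with 1 sample left out. Among the 91 other pathway genes in that contrast, 1 was higher with no filter, with median-ratio scaling, with only the 2 groups and with the length trend removed, and 0 to 2 with 1 sample left out. Lower were 8, 22, 7 and 23 under those settings in the same order (971, 1480, 903 and 1588 over all genes tested). With 1 sample left out, 7 to 15 of the 91 were lower. Their median at 24 h against Gln added was 0.12 with total scaling. For these the cause was not tested.

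Deviations of same-numbered samples from their group means correlated at -0.14 to 0.28, and those of differently numbered samples at -0.47 to 0.30. With means of only 3 samples, these values do not settle whether the replicate numbers pair the samples. With the replicate number as a block, 27 members were higher and 12 lower at 12 h, 19 higher and 14 lower at 24 h, and 1 higher and 13 lower between the times. Between the times that block gave 1258 higher and 1328 lower over all genes tested. Limits are set by 3 samples per group, by relative values that do not show total RNA per cell, and by counting whose use of strand is unknown, which matters for the 12 members with over 10% of exon bases under opposite-strand transcripts. Synthesis of rRNA itself was not measured.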
